A study of Mus musculus with 21 samples.

Results

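Compound 9 was compared with its vehicle on 6 of the 21 arrays of the series: 3 arrays of organoids treated with 2 uM compound 9 for 24 h, titled with the letters A, B and C, and the 3 vehicle arrays with the same letters, paired by letter. All cultures were mouse small intestinal crypt organoids that carry a tet-O transgene for a Myc-tagged, N-terminally truncated, stable human beta-catenin, driven by the M2-rtTA activator from the endogenous Rosa26 promoter. The medium held epidermal growth factor, Noggin and R-spondin 1, and doxycycline was present in both the compound 9 and the vehicle cultures, so that both groups expressed the mutant beta-catenin. The arrays used beside them were compound 2 (2 uM, 24 h, doxycycline, letters A to C), compound 6 (2 uM, 24 h, doxycycline, letters D to G), cultures from which doxycycline was withdrawn for 24 h (letters D to G), and the vehicle arrays of letters D to G. The 3 compounds are described in the labels as close analogues of a trisubstituted pyridine series that inhibit CDK8 and CDK19; they do not state the structural change that sets compound 9 apart. Nothing in the labels says whether the letters are separate cultures or animals, so the p-values rest on the spread among these arrays alone, which may be technical.

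CDK8 and its paralogue CDK19 are kinases that, with cyclin C, MED12 and MED13, form the kinase module of Mediator, the complex that links transcription factors to RNA polymerase II. CDK8 has been described as a positive regulator of beta-catenin-driven transcription in colorectal cancer cells. In intestinal crypts, beta-catenin bound to TCF/LEF factors maintains stem cells and switches on its own feedback inhibitors, among them Axin2, Rnf43, Znrf3, Nkd1 and Notum. Cytochrome P450 enzymes of the Cyp3a family and glutathione transferases are the drug-metabolising enzymes of the gut epithelium, and Cyp3a genes are classic targets of the nuclear receptor PXR, which many small molecules activate.

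Each array carried the sample labelled with Cy3 and one universal mouse reference RNA labelled with Cy5. Between 49.4% and 51.9% of sample spots were well above background on the 6 arrays. The 12 epithelial markers, Epcam and Vil1 among them, were above background on all 6 arrays, whereas of 14 leukocyte markers measured 11 were, with mean log2 signals per array of 8.55 to 8.66 with compound 9 and 8.57 to 8.65 in vehicle, against 14.9 to 15.2 and 15 to 15.2 for the epithelial list. The fibroblast and endothelial lists were as dim (8.64 to 8.78 and 8.06 to 8.17 over both groups). Letters A and B lay on 1 slide and letter C on another. On both slides every vehicle array lay in column 1, every compound 2 array in column 3 and every compound 9 array in column 4. Array position and treatment therefore cannot be told apart among these groups. Values are log2 ratios of sample over reference, a change is the mean difference of same-letter arrays with its standard error, and a gene is called where limma's two-sided moderated test, fitted to all 21 arrays with the letter as a block, gave a Benjamini-Hochberg adjusted p below 0.05.

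Compound 9 left the organoid transcriptome close to that of vehicle. Of 21504 genes tested, 1 was called, Cyp3a41b, which is 0.00465% of the genes. An unadjusted p below 0.05 was reached by 672 genes (3.12%), 297 of them higher and 375 lower with compound 9. Only 2 genes differed by 2-fold or more in the mean, Cyp3a41b and Cyp2c55, and 31 genes lay outside 0.5 on the log2 scale. The median absolute change was 0.0545, below the median standard error of 0.0894, and below the typical spread of same-group arrays (median SD 0.115 in vehicle, 0.117 with compound 9). The 95% interval of the change lay within 2-fold in both directions for 99.9% of genes and within 1.5-fold for 98.4%. A change of 2-fold is therefore outside the interval for all but 25 genes.

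The same measures were larger for the other treatments in the same fit. The median absolute change was 0.117 with compound 2, 0.160 with compound 6 and 0.149 after doxycycline withdrawal, and 1086, 2193 and 2208 genes lay outside 0.5 on the log2 scale. The fit called 3734 genes (17.4%) for compound 2 against the same 3 vehicle arrays, 8930 (41.5%) for compound 6 and 8387 (39.0%) for withdrawal, the last 2 with 4 arrays a group. Across genes, the changes with compound 9 in letters A and B correlated at r = 0.129, in A and C at -0.109 and in B and C at -0.239, each letter with its own vehicle array, over 21504 genes that are not independent. For compound 2 the corresponding values were 0.679, 0.673 and 0.524. The pattern of change with compound 9 thus did not recur from letter to letter over the genes as a whole, whereas that with compound 2 did.

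**Figure D1:**
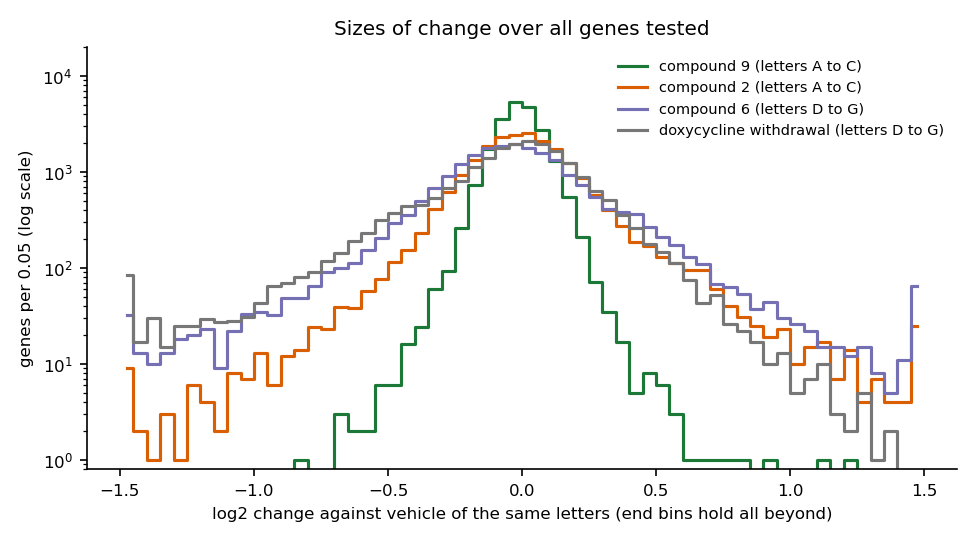
Number of genes per 0.05 of log2 change (log scale) against log2 change from same-letter vehicle arrays, for compound 9, compound 2, compound 6 and doxycycline withdrawal, over 21504 genes. The compound 9 curve is the narrowest, with 31 genes outside 0.5 against 1086, 2193 and 2208 for the others.

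The gene that was called, Cyp3a41b, encodes a member of the Cyp3a family, which hydroxylates steroids and drugs. Its log2 ratio was 5.20, 4.57 and 4.89 in vehicle A, B and C, and 6.06, 6.03 and 6.27 with compound 9. All 3 compound 9 arrays lay above all 3 vehicle arrays, and the rise per letter was 0.865, 1.46 and 1.38. The mean change was 1.24 ± 0.163 (SE), or 2.35-fold, with an adjusted p of 0.0373 in limma. The call was lost with no replicate block (adjusted p = 1) and with only the 6 arrays in the paired fit (0.877), as it was when compound 9 B or C, or vehicle A, B or C, was left out (adjusted p 0.0980 to 0.803); the change itself was 1.14 to 1.36 without one of those 5 arrays. The probe lies at chr5:146319794-146319853 (mm9), in the Cyp3a cluster of chromosome 5, and the near-identical Cyp3a41a copy may share its signal.

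Every gene that the sample channel alone picked out lay in the Cyp3a cluster. When the Cy3 channel was analysed by itself, without the reference, 7 genes were called (0.0326%), all higher with compound 9, and all 7 lay in that cluster between chr5:146151322 and chr5:146920697. They were Cyp3a59 (1.24 ± 0.121, adjusted p = 0.00081), Cyp3a25 (0.905 ± 0.0960), Cyp3a11 (1.06 ± 0.142), Cyp3a16 (1.06 ± 0.143), Cyp3a41b (1.27 ± 0.172), Cyp3a57 (0.799 ± 0.127) and a probe with no gene name in the files next to Cyp3a25 (0.840 ± 0.117), as log2 Cy3 changes with limma adjusted p of 0.00081 to 0.0448. Each of the 7 was higher with compound 9 in letters A, B and C. The other Cyp3a59 probe, at sample signals of 66.8 to 73.4 in vehicle and 61 to 75.7 with compound 9, gave 0.11 ± 0.133 on the same scale and did not pass, so the probes of this gene disagree. With no replicate block the adjusted p was 1 for each. Cyp3a13, the family member outside the cluster, did not pass (-0.06 on the same scale). Neither did Cyp3a44 (-0.01), whose probe was above background on 2 of 3 arrays in each group. Another cluster probe with no gene name gave 0.916 ± 0.151 and a further one 0.045 ± 0.069, and neither passed.

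Probe sequences are shown because the Cyp3a copies are alike. Whether each probe reads only the gene it is named for was not tested, so the calls in this cluster may not be of separate genes. The Cyp3a59 probe (chr5:146920638-146920697, mm9) covers the haem-binding loop, the conserved stretch that holds the cysteine ligand of the haem iron; capitals mark the bases that read as this signature in its only open frame. The second Cyp3a11 probe (chr5:146672058-146673925, mm9, a stretch that spans an intron) lies elsewhere in the coding sequence and has no such signature.
Cyp3a59 probe: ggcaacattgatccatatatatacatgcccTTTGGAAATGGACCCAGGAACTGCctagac
Cyp3a11 probe: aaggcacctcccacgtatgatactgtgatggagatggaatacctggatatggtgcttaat

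Spot intensities are given as scanned, before background correction and normalisation. The compound 9 C array was dimmer on spots whose ratio hardly moved. Cyp3a13 read 36821 in the sample channel of vehicle C and 21821 with compound 9 C. Group overlap in these intensities therefore depends in part on array brightness. The Cyp3a59 spot read 6859, 6148 and 7765 in the sample channel of vehicle A, B and C, and 14825, 14365 and 12769 with compound 9. The groups did not overlap. The reference channel of the same spot, which should hold the same RNA on every array, read 89.0, 82.9 and 80.0 with vehicle and 137.8, 116.1 and 106.7 with compound 9, and these did not overlap either. The log2 ratio therefore moved less than the sample signal, from 7.39, 7.05 and 7.36 to 7.84, 8.02 and 7.70, a difference of 0.588 ± 0.128 that did not pass (adjusted p = 0.7). The second Cyp3a11 probe showed this most plainly. Its sample signal was 13776, 13423 and 16343 in vehicle and 29182, 31978 and 24164 with compound 9, its reference signal was 933.7, 831.1 and 881.0 in vehicle and 1816, 1860 and 1185 with compound 9, and its ratio differed by -0.04.

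The abundant Cyp3a11, the main drug-metabolising P450 of this family in mouse, read 50712, 36148 and 52280 in the sample channel of vehicle and 87507, 86155 and 76269 with compound 9 on the probe used for the gene. Its log2 ratios were 9.43, 9.29 and 9.44 in vehicle and 9.96, 10.05 and 10.02 with compound 9. The groups did not overlap in either measure, but the ratio did not pass (0.62 ± 0.154, adjusted p = 1). Cyp3a16 read 11608, 9224 and 11325 in vehicle and 20028, 22178 and 16358 with compound 9 in the sample channel, with reference signals of 143.2, 105.4 and 116.8 against 185.8, 212.4 and 159.9. Its ratio differed by 0.28 and that of Cyp3a57 by 0.25, neither past the threshold. At Cyp3a41b the reference signals of the groups overlapped (43.8, 50.5 and 49.5 in vehicle, 49.5, 49.2 and 42.2 with compound 9). These readings were little above those of the dim Cyp3a44 spot (39.1 to 44.7 in vehicle, 39.3 to 42.9 with compound 9). A shift in the reference like that at the other spots could be masked there. The sample signal of Cyp3a41b went from 901.4, 758.8 and 969.3 in vehicle to 1865, 1878 and 2281 with compound 9.

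The direction of the Cyp3a ratios was not the same under every processing. On Agilent's own log ratios, Cyp3a59, Cyp3a16, Cyp3a25 and Cyp3a57 differed by -0.24, -0.33, -0.71 and -0.29 with compound 9, and Cyp3a11 and Cyp3a41b by 0.34 and 1.26, none of them called; the series matrix gave the same signs except for Cyp3a41b (-0.03, with compound 9 C missing). Analysed alone, an alternative chosen after seeing the data, the reference channel differed between compound 9 and vehicle by 0.619 for Cyp3a16, 0.471 for Cyp3a59, 0.447 for Cyp3a57, 0.300 for Cyp3a11, 0.232 for Cyp3a25 and 0.04 for Cyp3a41b. With one probe per gene, none passed in that channel (0 of 21504 in limma, with 2376 at an unadjusted p below 0.05). Over all 29648 probes, the second Cyp3a11 probe did, with a reference signal higher by 1.05 ± 0.105 (adjusted p = 0.00299). The part of the reference signal in the Cyp3a results was not tested.

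The sample signal of these genes was higher still with compound 2. In the Cy3 channel compound 9 lay below compound 2 by 0.792 ± 0.121 for Cyp3a59 (adjusted p = 0.000388), 0.764 ± 0.172 for Cyp3a41b, 0.771 ± 0.143 for Cyp3a16 and 0.534 ± 0.142 for Cyp3a11, each called. On the ratio scale the difference was called for Cyp3a41b (-0.85 ± 0.163, adjusted p = 0.00223, and 0.344 with no replicate block) and Cyp3a59 (-0.47). Over all probes it was also called for a cluster probe with no gene name (-0.81 ± 0.152) and for Cyp3a44 (-0.82 ± 0.136). Cyp3a44 differed from vehicle by -0.06 with compound 9 and by 0.76 with compound 2. The Cy3 changes with compound 6 in letters D to G were 1.80 for Cyp3a59, 2.19 for Cyp3a41b and 2.05 for Cyp3a11, and after doxycycline withdrawal, with no compound, 0.949, 0.962 and 1.02.

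**Figure D2:**
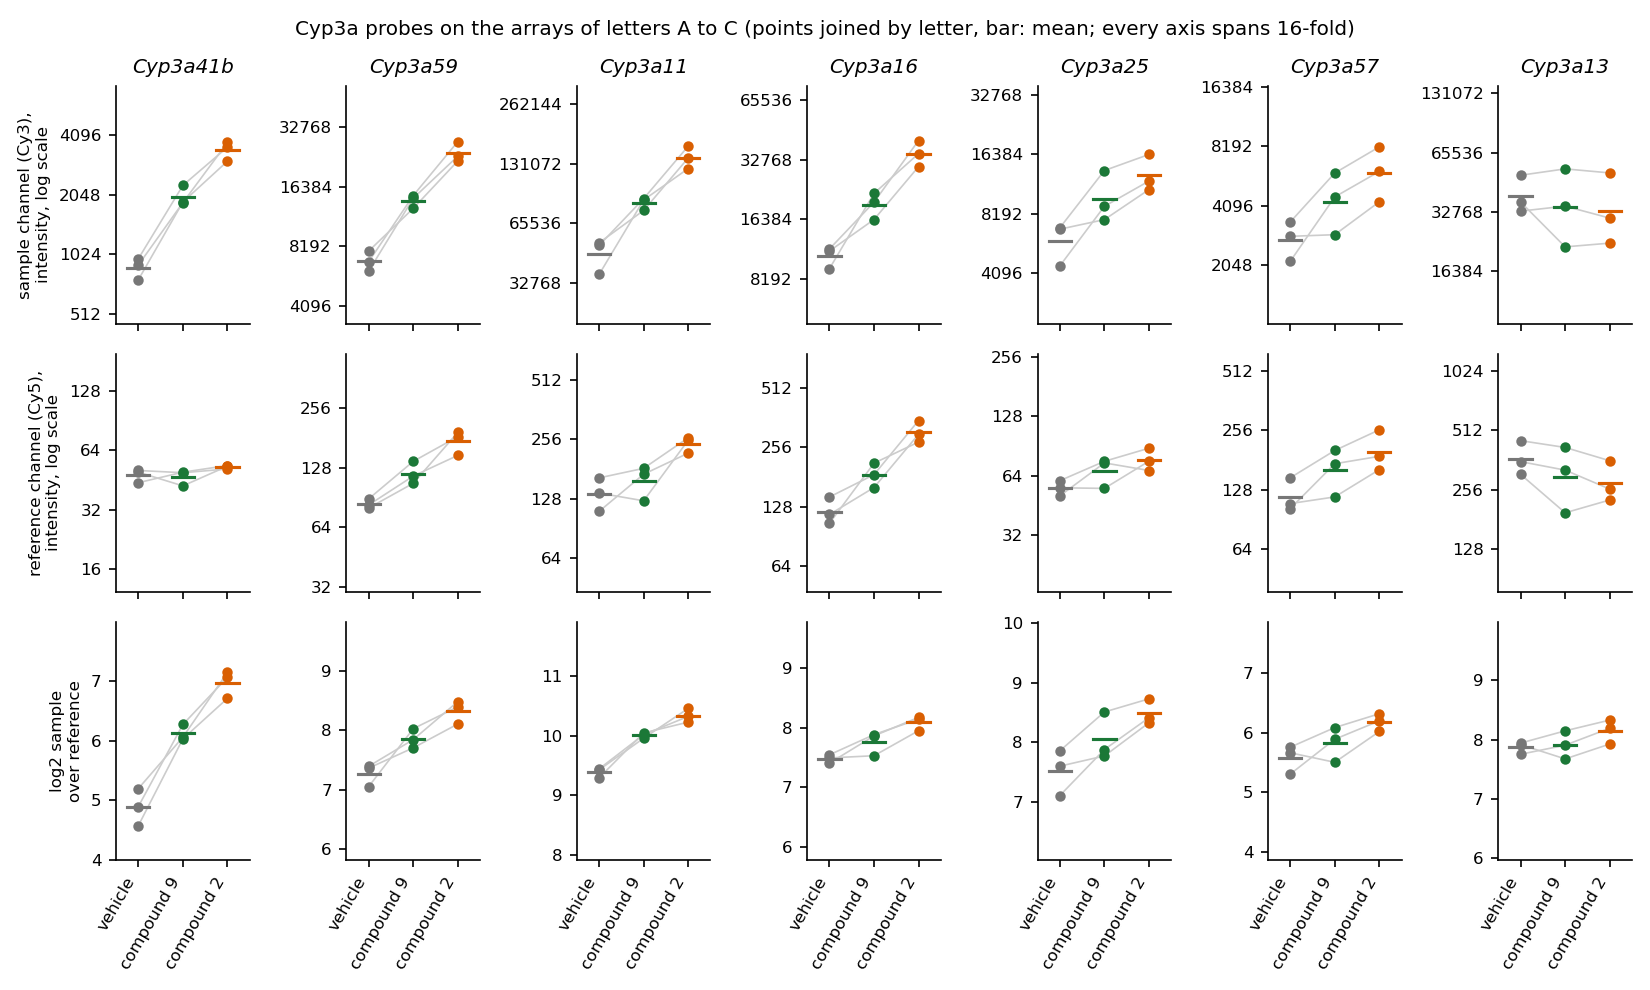
Sample-channel intensity, reference-channel intensity (both as scanned, on log scales) and log2 sample over reference for 7 Cyp3a genes on the vehicle, compound 9 and compound 2 arrays of letters A to C. Points of a letter are joined, bars are means and every axis spans the same 16-fold range. Sample signals of the 6 cluster genes step up from vehicle to compound 9 to compound 2, the reference signals of most of them step up less, and Cyp3a13 shows no such step.

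Promoter sequence, shown because the sample signals of both genes rose, was compared between the bright Cyp3a11 and the called Cyp3a41b, the 250 bases before each start site, from RefSeq (GRCm38.p6), both on the minus strand: chr5:145879855-145880104 for Cyp3a11 and chr5:145584731-145584980 for Cyp3a41b. PXR is known to bind paired half-sites, and 3 layouts were searched on both strands from 250 bases before to 50 after the start: AGNTCA repeated after a gap of 3 bases (DR3) or of 4 bases (DR4), and TGANCT followed after 6 bases by AGNTCA (ER6). Cyp3a11 held a DR4 match, in capitals, ending 156 bases before the start. Of 32851 promoters of the same length 41 (0.125%) held DR4, 23 (0.0700%) DR3 and 10 (0.0304%) ER6. No match to the 3 layouts was found in these windows of Cyp3a41b, Cyp3a16, Cyp3a25, Cyp3a57, Cyp3a59 or Cyp3a13.
Cyp3a11 promoter: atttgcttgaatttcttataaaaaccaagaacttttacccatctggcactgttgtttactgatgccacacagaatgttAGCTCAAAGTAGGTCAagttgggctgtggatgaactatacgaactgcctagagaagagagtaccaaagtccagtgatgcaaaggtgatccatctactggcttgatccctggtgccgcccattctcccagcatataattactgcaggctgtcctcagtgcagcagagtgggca
Cyp3a41b promoter: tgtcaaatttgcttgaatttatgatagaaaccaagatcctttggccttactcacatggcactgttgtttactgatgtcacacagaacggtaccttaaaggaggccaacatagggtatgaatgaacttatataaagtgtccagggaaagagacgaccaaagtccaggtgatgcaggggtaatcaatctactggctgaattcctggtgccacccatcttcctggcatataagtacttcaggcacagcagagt

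Some other genes with small unadjusted p-values follow, named after their values were seen. That their groups do not overlap follows in part from this choice and is given as description only. Gstm1, a mu-class glutathione transferase, had log2 ratios of 1.93, 1.93 and 1.71 in vehicle and 2.56, 2.67 and 2.48 with compound 9. The groups did not overlap, and the difference of 0.71 ± 0.119 did not pass over all genes (adjusted p = 0.248 in limma). It was called without the letter F arrays (adjusted p = 0.00562). None of those is a compound 9 array, and the change stayed at 0.71, so that only the estimated spread differed. The other Gstm1 probe gave 0.69. The array design lists the first probe on another chromosome than the Gstm1 gene, so which transcript it reads is uncertain. Gstm2 gave 0.855, 0.956 and 0.786 in vehicle and 1.37, 1.51 and 1.22 with compound 9, again without overlap (0.50 ± 0.0855, adjusted p = 0.248), and 0.46 and 0.47 on its other probes. Gstm4 differed by 0.58 ± 0.124 on one probe and by 0.07 on the other, so its probes disagree, and mu-class genes are similar enough in sequence that probes may share signal.

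Cyp2c55, a P450 of the colon and liver that makes hydroxylated arachidonic acid products, read 2.85, 3.18 and 2.89 in vehicle and 4.11, 4.35 and 3.91 with compound 9. The groups did not overlap, and the difference of 1.15 ± 0.252 was 2.22-fold, but it did not pass (adjusted p = 0.7). It was 1.53 higher with compound 2 than with vehicle and 1.51 lower after withdrawal, and compound 9 and compound 2 did not differ by the test (-0.37 ± 0.252, adjusted p = 0.372). Abcb1b, which encodes a P-glycoprotein efflux pump, read 0.04, 0.24 and -0.05 in vehicle and 0.37, 0.59 and 0.29 with compound 9; each letter differed by 0.321 to 0.351, and the groups did not overlap, but the gene did not pass (0.34 ± 0.0715, adjusted p = 0.7). Nos2, the inducible nitric oxide synthase, had the lowest value of the epithelial defence list. It read 1.43, 2.05 and -0.04 in vehicle and 0.165, 1.96 and -0.58 with compound 9. Those groups overlapped widely, and the difference (-0.63 ± 0.151) came to -1.27 in letter A and -0.09 in letter B (adjusted p = 1).

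The genes of the intended target and pathway did not pass with compound 9. Cdk8 read -0.01, 0.163 and 0.08 in vehicle and 0.102, 0.284 and 0.10 with compound 9, and Cdk19 read -1.04, -0.84 and -0.84 in vehicle and -0.82, -0.90 and -0.92 with compound 9. Both pairs of groups overlapped. The 6 measured genes of the kinase module (Cdk8, Cdk19, Ccnc, Med12, Med13 and Med13l) differed from vehicle by -0.06 to 0.08 (median -0.02, over all genes -0.01), and each 95% interval lay within 1.5-fold. These are RNA levels and do not measure kinase activity. Ctnnb1, the beta-catenin gene, differed by 0.03 (95% interval -0.08 to 0.14); whether its probe reads the human transgene was not tested.

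Among Wnt feedback genes, Axin2, a scaffold of the beta-catenin destruction complex, read 0.749, 1.09 and 0.505 in vehicle and 0.460, 1.17 and 0.267 with compound 9. The groups overlapped, and the difference was -0.15 ± 0.146. Rnf43, a ubiquitin ligase that removes Frizzled receptors, read 2.83, 3.28 and 2.65 in vehicle and 2.84, 3.23 and 2.5 with compound 9, a difference of -0.06 ± 0.106 with a 95% interval of -0.29 to 0.16. On the compound 2 arrays of the same letters Rnf43 read 1.61, 2.27 and 1.29, below every vehicle and compound 9 array. Its partner Znrf3 differed from vehicle by 0.00 ± 0.0907, the secreted Wnt deacylase Notum by 0.01 ± 0.0826 and the Dishevelled antagonist Nkd1 by 0.13 ± 0.146. The transcription factors Lef1, Tcf7 and Sp5 differed by 0.10, 0.16 and 0.08, and Myc by 0.06 ± 0.186.

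The stem cell genes behaved likewise. Ascl2, a transcription factor of crypt base stem cells, read 3.13, 3.35 and 3.41 in vehicle and 3.17, 3.15 and 2.88 with compound 9, so that letter A differed by 0.04 and letter C by -0.53 (mean -0.23 ± 0.230). Tnfrsf19, a Wnt-induced receptor of the TNF family, read 0.199, 0.231 and 0.134 in vehicle and 0.227, 0.325 and -0.25 with compound 9 (mean -0.09 ± 0.168). The receptor Lgr5 had the widest interval of these genes, -1.02 to 0.86 around -0.08, and was above background on 2 of 3 arrays in each group, so a 2-fold fall in Lgr5 was within its interval. In letter C several of these genes (Ascl2, Tnfrsf19, Lgr5 and the potassium channel gene Kcnq1, at -0.53, -0.38, -0.50 and -0.58) were lower with compound 9, and in letters A and B they differed by -0.20 to 0.14.

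**Figure D3:**
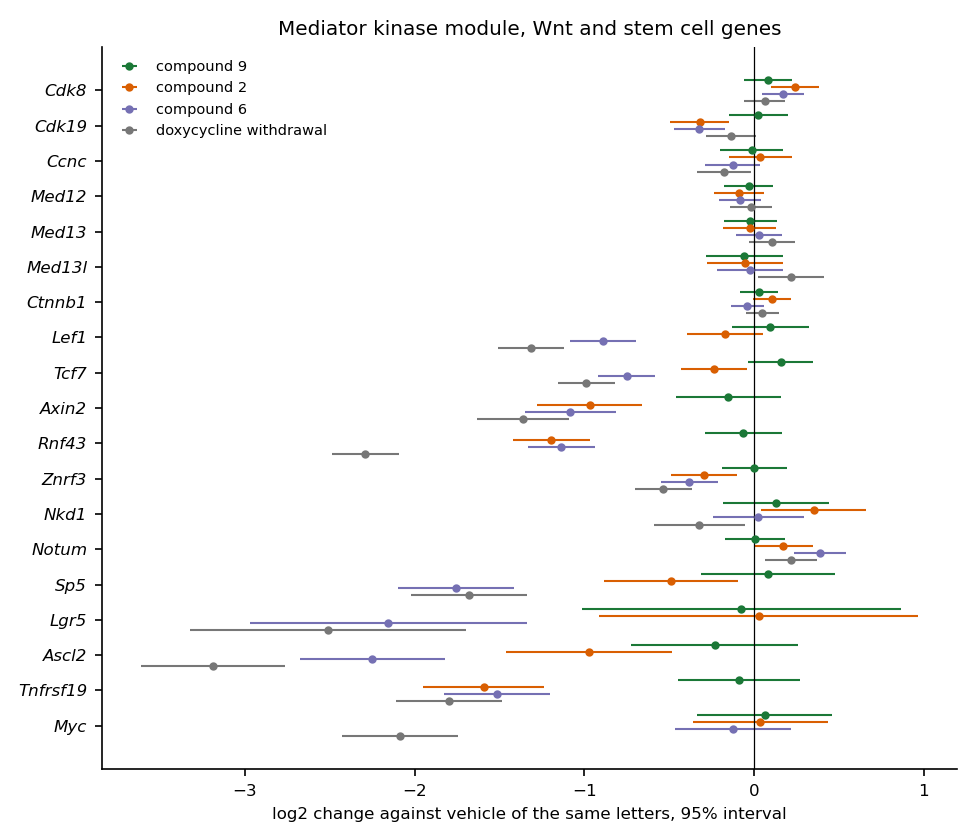
Log2 change against same-letter vehicle with its 95% interval for the kinase module, Wnt and stem cell genes, in each of the 4 treatments. The compound 9 intervals all include 0, with Ascl2 at -0.23 and Lgr5 the widest (-1.02 to 0.86), while Rnf43 lies at -1.19, -1.14 and -2.29 with compound 2, compound 6 and withdrawal.

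No member of the 24 gene lists was called with compound 9 on the ratio scale, where 0.00465% of all genes were; the 24 lists cover pathways and cell types of the intestine. In the Cy3 channel alone, 1 member of 1 list was called, Cyp3a11 among 30 enterocyte genes. The Wnt/beta-catenin list had 0 of 32 measured genes at an unadjusted p below 0.05 (median change -0.01, from -0.30 for Kcne3 to 0.16 for Tcf7), the stem cell list 0 of 25 (median -0.06), the cell cycle list 0 of 26 (median 0.00) and the ribosome biogenesis list 0 of 24 (median 0.02), where 3.12% of all genes had such a p and the median over all genes was -0.01. The 95% interval lay within 2-fold for 31 of the 32 Wnt genes and 24 of the 25 stem cell genes, Lgr5 being the exception in both. The corresponding medians after withdrawal were -0.50, -1.4, -1.2 and -1.2.

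The list with the most members at an unadjusted p below 0.05 was that of NRF2 targets, the genes of glutathione and quinone metabolism that this oxidative stress factor controls. It was also the longest list. Of 35 measured, 6 were higher at that p and 1 lower, and the median change was 0.09. Over all 21504 genes 297 were higher at that p and 375 lower, 3.12% together, and the median was -0.01. The 6 were Gstm1, Gstm4, Gstm2, Nqo1 (a quinone reductase, 0.30 ± 0.106), Gsta3 (a glutathione transferase, 0.29 ± 0.120) and Gsr (glutathione reductase, 0.24 ± 0.0920). Gstm3 was the lower one (-0.16). Probes of the Gstm genes may share signal, so these members may not be separate. The median was 0.13 in letters A and B and 0.01 in letter C. Gclc, the catalytic subunit of glutathione synthesis, differed by 0.22 ± 0.132 and the aldo-keto reductase gene Akr1b8 by 0.19 ± 0.181. The fatty acid synthesis list had 4 of 19 higher at that p, Scd1 (the stearoyl-CoA desaturase, 0.36 ± 0.0799, higher in 3 of 3 letters), Gpam (0.29), Scd2 (0.24) and Elovl6 (0.16), with medians of 0.13, 0.13 and -0.04 in letters A, B and C.

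The medians of the differentiated cell lists lay between -0.09 and -0.02. Over all 21504 genes the median was -0.01, and 297 were higher and 375 lower at an unadjusted p below 0.05 (3.12% together). The goblet cell list, led by the mucin Muc2 (0.01 ± 0.0897) and the trefoil peptide Tff3 (0.04 ± 0.103), had a median of -0.02 with 0 of 19 at an unadjusted p below 0.05. The Paneth cell list had a median of -0.03 with 0 of 14, with lysozyme Lyz1 at -0.13. The enterocyte list had 1 of 30 higher (Cyp3a11) and 2 lower, Ada (adenosine deaminase, -0.53 ± 0.171) and Fabp1 (the fatty acid binding protein of enterocytes, -0.21 ± 0.0659). The enteroendocrine list had the lowest median of the 24, -0.09, with 2 of 25 higher and 3 lower, but only 10 of its genes were above background on all 6 arrays. The tuft cell list had a median of -0.09, with -0.27 in letter C, and 2 of 16 lower at that p, both enzymes of eicosanoid synthesis: Ltc4s (-0.23 ± 0.107) and Hpgds (-0.22 ± 0.102). Markers of fibroblasts, leukocytes and endothelium had none at that p and medians of 0.00, 0.01 and 0.03.

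**Figure D4:**
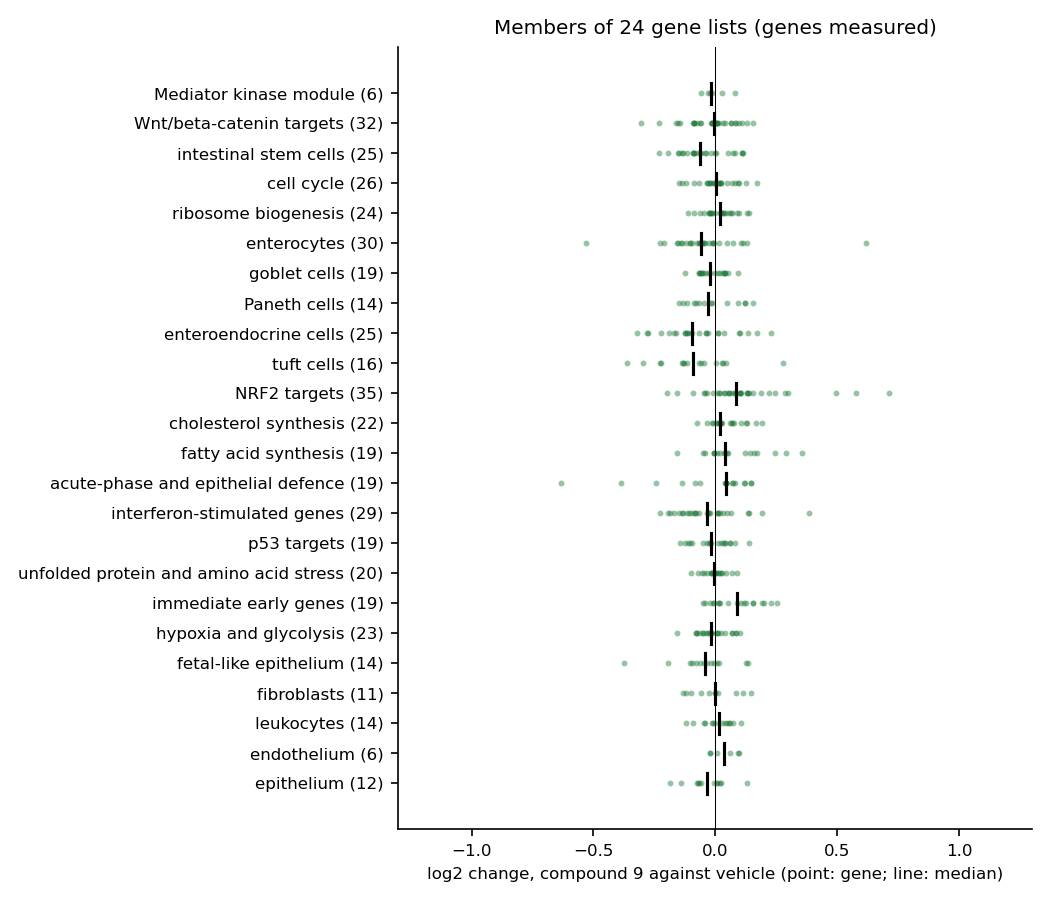
Log2 change with compound 9 against vehicle for every measured member of 24 gene lists (points) with the list's median (line). Medians lie between -0.09 and 0.09, and the few points beyond 0.5 are Cyp3a11, Gstm1, Gstm4, Ada and Nos2.

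Compound 9 and compound 2 form the one pair of analogues measured at the same dose, time and letters, so they were compared directly, with no vehicle array in the difference. Slide column was not matched (column 4 for compound 9, column 3 for compound 2), so position and compound cannot be told apart here either. Compound 9 differed from compound 2 in 3421 genes (15.9%), 1344 higher with compound 9 (6.25%) and 2077 lower (9.66%). The count was 1019 with no replicate block. On Agilent's log ratios 58.6% of the called genes were higher with compound 9, against 39.3% here, so which direction prevails depends on the scaling, while the medians over all genes moved by less than 0.1. Of the 138 called genes that differed by 2-fold or more, 137 lay nearer to vehicle with compound 9 than with compound 2. That count follows largely from the small changes with compound 9, where 31 of all genes lay outside 0.5 on the log2 scale. The exception was Gkn2, a gastrokine gene, at -0.81 with compound 9 and 0.72 with compound 2, and it was named after its value was seen.

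The genes lower with compound 9 than with compound 2 were led by Cbr3, a carbonyl reductase. Cbr3 read -1.89, -2.95 and -2.16 in vehicle, -1.76, -2.62 and -2.31 with compound 9, and 0.997, 0.08 and 0.716 with compound 2. The compound 9 and vehicle arrays overlapped and compound 2 lay above both, a difference between the compounds of -2.83 ± 0.139, or 7.09-fold (adjusted p = 6.13e-08). The acute-phase gene Saa2 read 0.03, 0.348 and -0.09 with compound 9 and 2.20, 2.75 and 1.89 with compound 2 (-2.18 ± 0.144, adjusted p = 3.71e-07). That size is uncertain, since its probe was above background on 1 of 3 compound 9 arrays, none of the vehicle arrays and all 3 of compound 2. Others in this direction were the sperm lysozyme-like gene Spaca3 (-2.01; -1.10 on Agilent's log ratios and 1.25 on the series matrix, neither called), the stem cell gene Smoc2 (-1.93), the carboxylesterase Ces3a (-1.85; -0.69 and -0.43 there, neither called), the replication licensing gene Mcm6 (-1.84), Tex12 (-1.78) and the epithelial chemokine Ccl28 (-1.74), the last 2 not called on the series matrix. The other Mcm genes of the cell cycle list (Mcm2, Mcm3, Mcm4, Mcm5 and Mcm7) differed by -0.30 to 0.03, and none was called. Among NRF2 targets 22 of 35 were lower with compound 9 than with compound 2 and none higher, where 9.66% and 6.25% of all genes were, and 9 of 19 goblet cell genes were lower.

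Genes higher with compound 9 than with compound 2 included Wnt targets and stem cell genes. Rnf43 was higher by 1.13 ± 0.106 (2.19-fold, adjusted p = 8.06e-06; 0.0172 with no replicate block), Tnfrsf19 by 1.51 ± 0.168 (adjusted p = 3.52e-05), though by 0.35 on its other probe, and Kcnq1 by 1.39 ± 0.151 (adjusted p = 2.74e-05). Axin2 was higher by 0.82 ± 0.146 (adjusted p = 0.00136; 0.0693 with no replicate block), by 0.00 on its other probe. Of the 32 Wnt targets 10 were higher and 3 lower, where 6.25% and 9.66% of all genes were. Of the 25 stem cell genes 11 were higher and 1, Smoc2, lower. These counts are not separate results, since the lists share genes. Axin2, Rnf43, Znrf3, Ascl2, Tnfrsf19, Sp5, Sox9 and Cdca7 were called higher in both. Ascl2, Sp5 and Znrf3 were near the threshold (limma adjusted p 0.04, 0.0475 and 0.0364). With no replicate block these were 0.31, 0.555 and 0.187, and none of these genes was called without compound 9 A. Tcf7, also among the 10, was not called in the Cy3 channel alone or on Agilent's log ratios, and differed by 0.03 on its other probe. Further genes in this direction were Mup20 (1.83; adjusted p 0.000545, 0.180 with no replicate block) and Mup4 (1.33; 0.00028 and 0.329), which encode major urinary proteins whose copies are nearly identical, Lect2 (1.58; not called on Agilent's log ratios or the series matrix), the proline catabolism gene Prodh2 (1.40; 0.376 with no replicate block), the secreted phospholipase Pla2g5 (1.3; 0.0855 with no replicate block, and 0.20 on its other probe) and Svop (1.29).

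The kinase genes differed little between the compounds. Cdk8 differed by -0.16 ± 0.0661 (adjusted p = 0.117, 95% interval within 1.5-fold), and Cdk19 was higher by 0.35 ± 0.0806 (adjusted p = 0.00817; 0.0523 with no replicate block), reading -0.82, -0.90 and -0.92 with compound 9 and -1.21, -1.3 and -1.17 with compound 2 without overlap. Myc (0.02), Notum (-0.17) and Lgr5 (-0.10 ± 0.441) did not differ by the test. The interferon-inducible chemokine Cxcl10 was higher with compound 9 than with compound 2 by 1.02 (adjusted p = 0.00013), and 7 of 29 interferon-stimulated genes were higher and 2 lower, where 6.25% and 9.66% of all genes were.

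Compound 6 was applied at the same dose and time but to letters D to G, so its changes, not its levels, were set beside those of compound 9, with no array in common. The change differed in 4672 genes (21.7%; 1393 with no replicate block). Genes were also chosen on compound 6 alone, called and at least 2-fold from vehicle, and their values with compound 9 read off as a description. The 193 that rose with compound 6, by a median of 1.28, had a median of -0.01 with compound 9 and 0.57 with compound 2, and the 193 that fell, by a median of 1.23 on the log2 scale, had -0.02 and -0.32. With compound 9, 89 of the first set were higher than vehicle and 104 lower, and 1 was called, Cyp3a41b. The 95% interval lay within 2-fold for 189 of 193 and 190 of 193.

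An unadjusted p below 0.05 with compound 9 was reached by 26 of the 193 genes that rose with compound 6, and 19 of these were higher, where 3.12% of all genes reached that p. They included 5 Cyp3a genes, Gstm1, Gstm2, Gstm4, Gsta3, Nqo1, Gsr, Scd1, Scd3 and the retinal dehydrogenase Aldh1a1 (0.19). The genes with the largest rises with compound 6 were not among them. Cbr3 differed by 3.36 with compound 6 and 0.11 with compound 9, Runx1, a transcription factor, by 3.08 and -0.09, and the growth factor Fgf18 by 2.94 and 0.17. Of the 193 genes that fell with compound 6, 4 reached that p, 3 of them lower with compound 9, which is a share no larger than that over all genes. Over all genes the change with compound 9 correlated with that of compound 6 at r = 0.025, and the change with compound 2 with that of compound 6 at 0.569, across 21504 genes that are not independent.

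**Figure D5:**
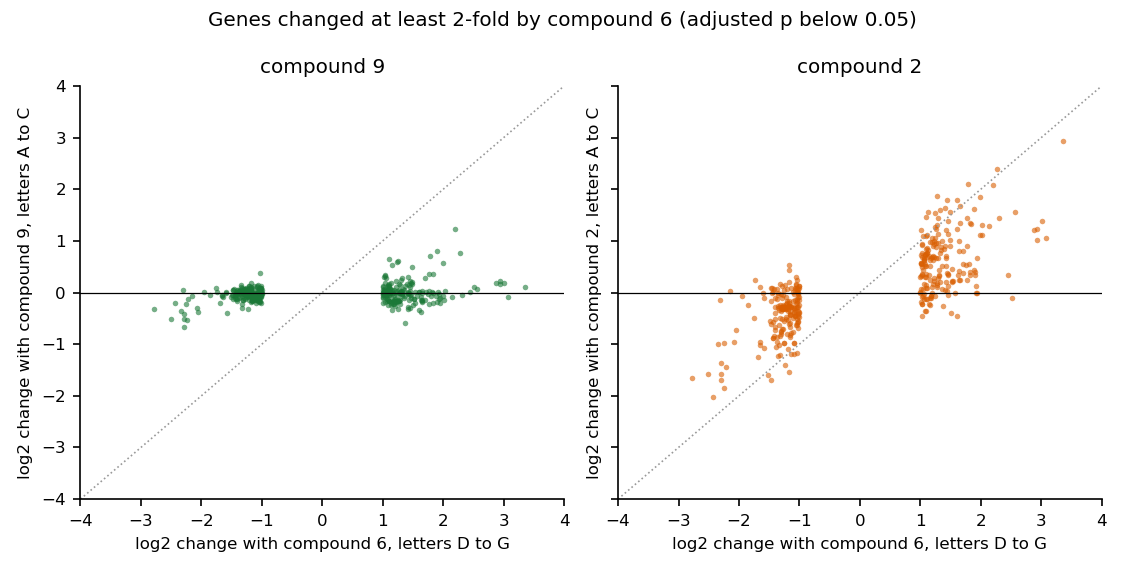
Log2 change in letters A to C with compound 9 (left) and compound 2 (right) against log2 change with compound 6 in letters D to G, for the 386 genes that compound 6 changed at least 2-fold. Compound 9 points lie along 0 apart from a few, the highest being Cyp3a41b at 1.24, whereas compound 2 points lean toward the dotted line of equal change.

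Doxycycline withdrawal, which switches the mutant beta-catenin off and serves as the reference for reduced Wnt signalling, was treated in the same way. The change differed from that with compound 9 in 5011 genes (23.3%; 310 with no replicate block), and 64.8% of them were higher with compound 9, or 51.3% in the Cy3 channel alone. The 311 genes that fell at least 2-fold on withdrawal, by a median of 1.28 on the log2 scale, had a median of 0.00 with compound 9, with 147 higher and 164 lower than vehicle and none called (4 at an unadjusted p below 0.05). The 35 that rose had a median of -0.03. Ascl2 changed by -3.19 on withdrawal and by -0.23 with compound 9, Rnf43 by -2.29 and -0.06, and Myc by -2.09 and 0.06. Over all genes the 2 changes correlated at r = -0.057.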

How the data were processed

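Sample RNA (Cy3) was hybridised with universal mouse reference RNA (Cy5) on 2-colour Agilent arrays without dye swaps. Per the file headers, Feature Extraction 10.7.3.1 quantified the scans: the deposited files give spot intensity and background per channel as scanned, and the scanner software's own background- and dye-corrected log10 ratio, reference over sample. Set against these, the values of the deposited matrix are log2, sample over reference; no source here says how the authors computed them. Its column medians were -0.00743 to 0.0890. Of 62976 spots per array, 3671 controls were left out; 6076 spots flagged as non-uniform or as population outliers over all arrays were set to missing and none was saturated. In R 4.3.3 with limma 3.58.1, intensities were corrected with normexp (offset 50) and loess-normalised within arrays. A probe had to be well above background in the sample channel of 3 arrays or more (29648 probes), with the brightest probe per symbol, leaving 21504 genes, 5698 with over 1 probe and 13854 matched to RefSeq by accession. Old or array-design symbols were kept otherwise. The number of arrays limits the precision.

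One limma model over 21 arrays had terms for group and letter. Same-letter arrays of different groups deviated together (21 pairs, r 0.213 to 0.749; other letters, median -0.03), so the letter was used as a replicate block. Tests were two-sided, Benjamini-Hochberg adjusted, threshold 0.05, and the fit was tested on simulated data. Named genes were a fixed set of Mediator, Wnt and stem cell genes and the largest called changes. Also named were the members of each list with the smallest p and the largest differences from the other treatments. Any other gene was named after its values were seen. The comparison, members, lists and rules were chosen with earlier results of these data known. Alternatives covered the block, arrays, values, background, normalisation, filter, probes, slide, variance model and each array left out.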

Additional observations from a re-analysis of the deposited data

Results flagged for a closer look

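The tests of a difference between changes in separate sets of letters picked out results for both reference treatments. The change with compound 9 differed from that with compound 6 in 4672 genes and from that on doxycycline withdrawal in 5011. By the rule for named genes, the change with compound 9 less that with compound 6 was 2.45 for Mup4, 2.36 for Rgcc, 2.24 for Mup20 and 2.08 for Lgr5, and -3.25 for Cbr3, -3.17 for Runx1, -2.82 for Akr1b8 and -2.76 for Fgf18. The change with compound 9 less that on withdrawal was 3.43 for Pla2g5, 2.96 for Ascl2, 2.85 for Rgcc and 2.82 for Kcne3, and -2.08 for Prl2c5, -1.88 for Prl2c1, -1.38 for Pck1 and -1.38 for Dppa5a. Each difference was tested in one limma model with the letter as a block. With no replicate block 8 of these genes lost their call, at adjusted p of 0.0823 for Lgr5, 0.111 for Mup4 and 0.180 for Mup20 against compound 6, and 0.0529 for Kcne3, 0.0609 for Dppa5a, 0.0903 for Pck1, 0.115 for Prl2c5 and 0.142 for Prl2c1 against withdrawal. On the series matrix, without a call, Kcne3 turned to -1.92 and Lgr5 came to 0.31. No slide held arrays of both sets of letters, and each change is against vehicle arrays of its own letters.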

How the results depend on the processing

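The count of genes called for compound 9 against vehicle was 1 and ranged from 0 to 12. It was 0 with no replicate block (set term), with only the arrays compared in the paired fit, with Agilent log ratios, with a normexp offset of 0, with slide as the block, and, chosen after seeing the data, in the reference channel alone and within the slide of letters A and B. It was 2 without the letter F arrays, 7 in Cy3 alone, 12 on the series matrix and 12 within the slide of letter C, the last with 1 array a group and its spread assumed to be that of the others; 11 of the 12 were lower with compound 9 in both. Leaving out 1 compound 9 or vehicle array gave 0 to 2, and the 2 arose without compound 9 A. Beside each count of 0, 251 to 2376 genes had an unadjusted p below 0.05. The other counts fell under the same 2 blocks: compound 9 against compound 2 from 3421 to 1019 with no replicate block and 1029 with slide as the block (1928 to 2266 without 1 array, the lowest without compound 2 A), the difference from compound 6 from 4672 to 1393 and 1513, and the difference from withdrawal from 5011 to 310 and 336. Of single genes under an alternative, 109 values lost their call, 7 gained one and none reversed while called; 3 list counts went from 0 to 1. The 95% interval of the change with compound 9 reached beyond 1.5-fold for some genes, Lgr5 among them. Treatment and slide column cannot be told apart.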
